A study of Mus musculus with 20 samples.

Results

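The insulin and insulin-like growth factor (IGF) signalling genes described here are 10 genes: the ligands Igf1 and Igf2, the binding protein Igfbp5, the receptors Igf1r, Igf2r and Insr, the receptor substrates Irs1 and Irs2, and the transcription factors Foxo1 and Foxo3. A probe set was taken as a member when the platform annotation of the array named one of these genes, which gave 29 probe sets of the 45037 that are not array controls. Of the 29, 27 named 1 gene, 1440979_at named Airn and Igf2r, and 1444226_at named Gm38485 and Foxo3. All were kept, because the probe sets of a gene can read different parts of its transcripts. The names carry a hint of this: the ending _a_at marks probes shared by several transcripts of 1 gene, and _s_at marks probes that can be shared by transcripts of different genes.

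The data are messenger RNA profiles of neocortex from 20 male B6C3F1 mice (a first-generation hybrid of C57BL/6 and C3H), with a separate animal on each array. The study asked which messages of the brain differ with age and whether vitamin E in the diet alters them. Control diet was fed to the young control group, aged 5 months, and to the old control group, aged 30 months. The supplemented groups were also aged 30 months and received vitamin E from month 15 on, as α-tocopherol alone (1000 mg/kg) or as a mixture in which α- and γ-tocopherol were each at 500 mg/kg. Each group had 5 mice. γ-Tocopherol lacks a methyl group on the ring that α-tocopherol carries, and the dose of α-tocopherol also differs between both supplements.

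Insulin and the IGFs act through related receptor tyrosine kinases, the insulin receptor and the IGF-1 receptor. The activated receptor phosphorylates substrate proteins of the Irs family, which recruit phosphoinositide 3-kinase (PI3K) and so activate the kinase AKT. AKT phosphorylates FoxO transcription factors and keeps them out of the nucleus, and it feeds the mTOR kinase that controls protein synthesis. The IGF-2 receptor instead binds IGF-2 and delivers it to lysosomes, and IGF binding proteins hold IGFs outside the cell. In the brain the pathway is known for its roles in growth, survival and myelination, and reduced signalling through it lengthens life in several animals.

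Start-site sequences are shown for the members whose signal passed the test between young and old control mice, to show how unlike these genes are where transcription begins. They are RefSeq sequences of build GRCm38.p6, the 150 bases before the start of each gene on its own strand, with matches to the searched motifs on either strand in capitals. One motif was GGGCGG, the GC box that Sp1-type factors bind. Another was CCAAT, the CCAAT box that the factor NF-Y binds. The TATA box was searched as TATAAA. The site that FoxO factors prefer was searched as GTAAACA. Igfbp5 lies at chr1:72874866-72875015 on the minus strand, Igf1 at chr10:87860961-87861110 on the plus strand, Foxo1 at chr3:52268187-52268336 on the plus strand and Foxo3 at chr10:42276696-42276845 on the minus strand.
Igfbp5: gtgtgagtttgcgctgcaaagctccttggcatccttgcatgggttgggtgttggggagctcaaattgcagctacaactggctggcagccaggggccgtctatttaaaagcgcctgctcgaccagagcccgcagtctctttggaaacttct
Igf1: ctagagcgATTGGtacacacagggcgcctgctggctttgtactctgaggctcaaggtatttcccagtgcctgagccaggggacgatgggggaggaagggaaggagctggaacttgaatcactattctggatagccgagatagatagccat
Foxo1: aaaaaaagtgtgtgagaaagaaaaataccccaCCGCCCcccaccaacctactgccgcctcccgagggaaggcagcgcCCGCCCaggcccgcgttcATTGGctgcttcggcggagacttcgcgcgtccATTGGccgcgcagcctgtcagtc
Foxo3: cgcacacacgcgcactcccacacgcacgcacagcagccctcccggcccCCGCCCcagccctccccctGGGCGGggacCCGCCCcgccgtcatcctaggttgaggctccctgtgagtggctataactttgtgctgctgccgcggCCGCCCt
The Foxo1 and Foxo3 sequences had a GC content of 63.3% and 72.7% and several GC boxes. Those of Igfbp5 and Igf1 were at 55.3% and 54.0% and held no GC box, and in that of Igfbp5 none of the 4 motifs was found.

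The table of start sites held 12 windows of 300 bases (250 before and 50 after the start) for 9 of the 10 members, 4 of them for Igf2. Their GC content ran from 49.7% to 76.0%, against a median of 52.7% over all 32851 windows. The GC box was present in 8 of the 12 member windows and in 35.7% of all windows. The CCAAT box was present in 4 of the 12 and in 37.4% of all. The TATA box and the FoxO motif were found in 0 of the 12, against 13.6% and 3.65% of all windows. A match describes only these letters in this stretch. Only the exact letters were searched, so variants of a motif were not counted and 0 matches do not show that a gene lacks such an element.

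Signals are linear intensities that had been scaled so that every array had the same trimmed mean, and they cannot be compared between genes. Tests used log2(signal + 16), and a difference on that scale understates the change of a dim probe set. A probe set was tested when its mean log2 signal lay in the top 60% of the array, a signal of 184 or more, and was called when its p-value from limma, adjusted over all 27022 tested probe sets with the Benjamini-Hochberg method, was under 0.05. Of the 29 member probe sets 22 were tested, at least 1 for every gene. The other 7 were dim, with signals between 13.3 and 314.8 over all mice. These were 1 probe set each of Igf1, Igf2, Igf1r, Igf2r, Insr, Foxo1 and Foxo3.

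Between young and old control mice 4 of the 22 tested member probe sets were called, 3 higher and 1 lower with age. That is 18.2%, and over all tested probe sets the share called was 18.9%, so the members were called about as often as probe sets in general. The median difference of the 22 was -0.05 on the log2 scale, the same as the median of -0.05 over all tested probe sets. Igfbp5 and Foxo1 rose by 1.95-fold and 1.80-fold on 1 probe set each, Foxo3 rose by 1.33-fold on 1 probe set, and Igf1 fell by 0.67 on the log2 scale on 1 probe set. In each of these genes another tested probe set was not called, as described gene by gene below. Array-wide, 9.33% of probe sets were higher and 9.54% lower in old mice. When the arrays were scaled to equal medians instead, the median difference of all probe sets moved from -0.05 to 0.09 and the share of calls that were higher from 49.4% to 84.5%. The direction of each of the 4 calls was kept under that scaling and under quantile and cyclic loess normalization.

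**Figure D1:**
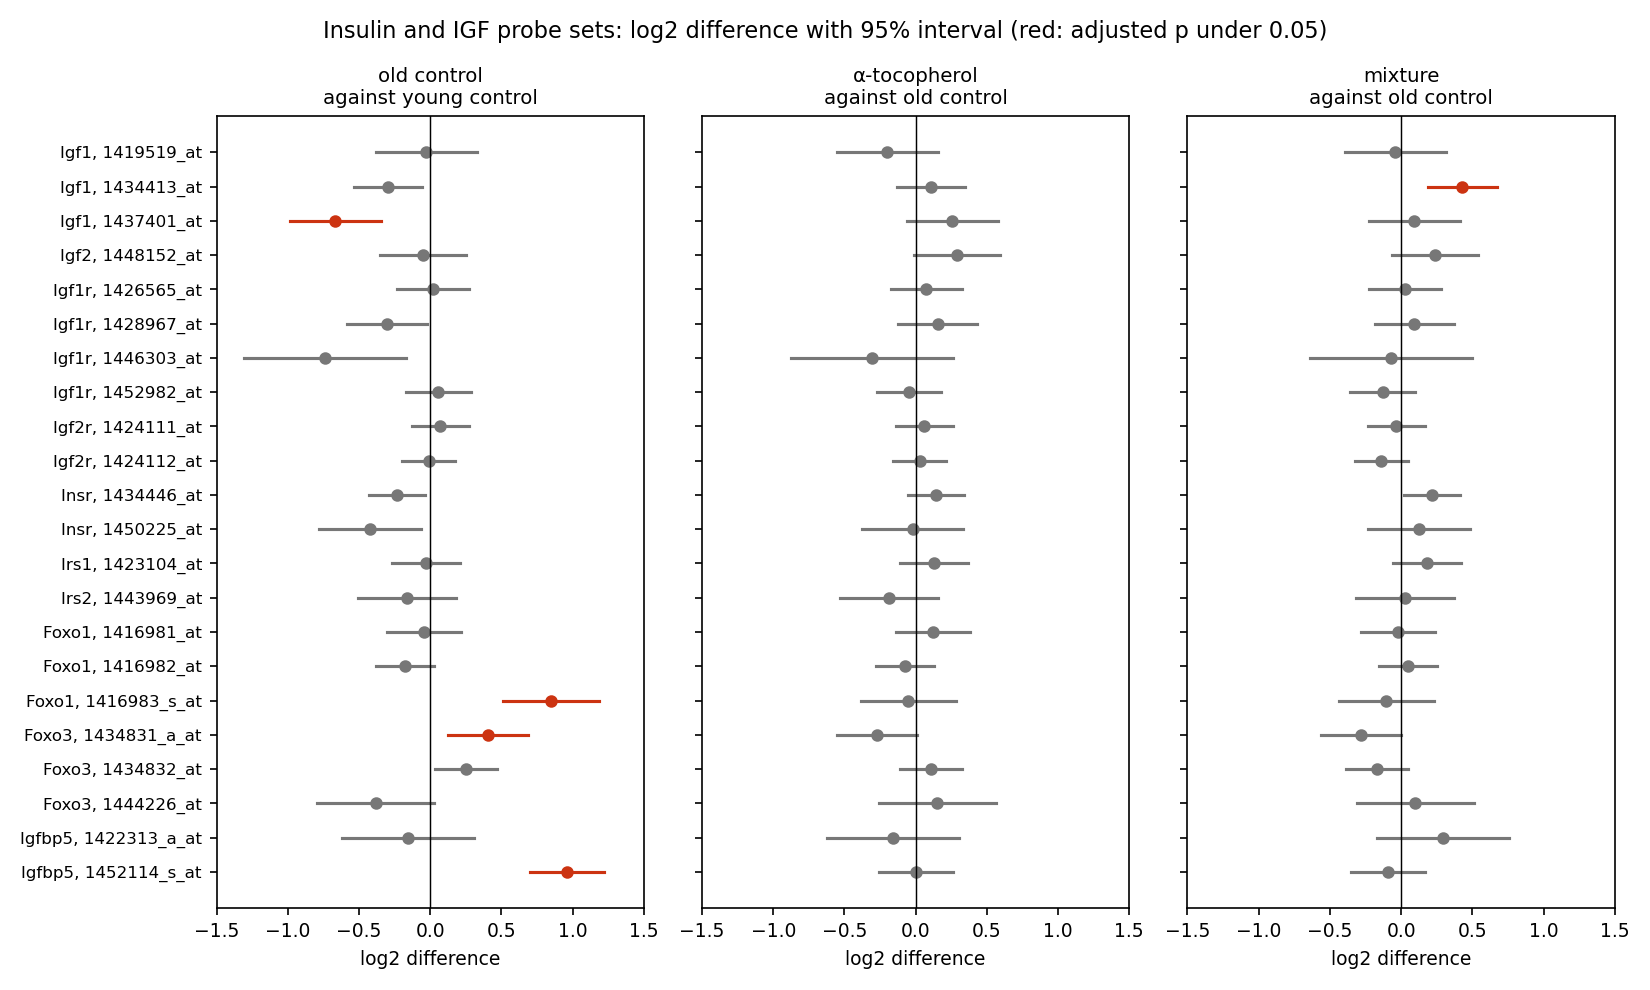
Log2 difference of each of the 22 tested member probe sets (points) with its 95% interval (lines), for old control against young control, α-tocopherol against old control and the mixture against old control, with probe sets past an adjusted p of 0.05 in red. Red points stand at 4 probe sets for age, 0 for α-tocopherol and 1 for the mixture.

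Igfbp5, which encodes an extracellular protein that binds IGF-1 and IGF-2, had the largest rise among the members. On probe set 1452114_s_at the young control mice had signals of 2551.1, 1766.8, 2330.8, 2702 and 1852.6. The old control mice had 3917.6, 3849.6, 4377.8, 4929.7 and 4608. Every old control mouse was above every young one, with means of 4337 ± 458 against 2241 ± 416 (SD, n = 5 each). The log2 difference was 0.96 ± 0.13 (SE), with an adjusted p of 6.602e-05 from limma.

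The supplemented mice had the old level of this Igfbp5 probe set. The α-tocopherol mice read 4787.9, 3769.9, 4359.3, 4399.3 and 4401.2, and the mixture mice 4118.7, 4281.8, 5386.4, 3465.9 and 3288.6. All 10 lay above the highest young mouse. From young to mixture, old control and α-tocopherol the means ran 2241, 4108, 4337 and 4344, and the last 3 groups overlapped. Against old control the log2 difference was 0.00 (95% interval -0.25 to 0.26) for α-tocopherol and -0.09 (-0.35 to 0.17) for the mixture.

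The other Igfbp5 probe set, 1422313_a_at, was not called. Its means were 953 ± 157 in young control and 905 ± 422 in old control mice (SD, n = 5), a log2 difference of -0.15 (95% interval -0.62 to 0.31). Old control mouse 3 read 1651.1 there and the other old control mice 642.1 to 802.8. The age differences of both probe sets were 1.12 apart on the log2 scale, with an exact permutation p of 0.02381 that became 0.05357 after Benjamini-Hochberg adjustment. This within-array comparison was added after the values were seen and covered the 18 pairs of tested probe sets in 7 genes. It passed in 7 pairs. The passing pairs of Igf1r share a probe set, as do those of Foxo1 and those of Foxo3, so the 7 are not independent. Pairs of probe sets of other genes were not compared. Whether 7 of 18 differs from the share among other genes was therefore not tested.

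Over the 20 arrays the genes most like Igfbp5 1452114_s_at were S100a1 (Pearson r = 0.962), Plekhb1 (r = 0.962) and S100a16 (r = 0.957). These values describe arrays that share the step between young and old mice. Markers of several brain cell types were also called higher with age, against 11.7% of all genes: 8 of 10 astrocyte genes, of which Aldoc and Slc1a2 were brightest, 5 of 9 oligodendrocyte genes, led by Mbp and Mobp, and 10 of 14 microglia genes, led by Ctss and Csf1r, with 1 microglia gene lower. Of 10 general neuron genes, with Snap25 and Syt1 brightest, 5 were called higher with age. Some other lists had fewer calls: 1 of 7 neocortical projection neuron genes and 2 of 8 pericyte and smooth muscle genes were higher. Of 10 endothelial genes 1 was higher and 2 were lower, and 0 of 6 striatum and 0 of 4 hippocampus genes were called. The summed astrocyte signal was 74483 to 77951 in young and 96745 to 110940 in old control mice. The summed oligodendrocyte signal was 71164 to 84750 and 89803 to 107240, and that of the neuron genes 139180 to 147210 and 151690 to 174860, in the same order. None of these 3 ranges overlapped between young and old control mice. In tissue RNA a change in the number of cells of a type and a change in RNA per cell cannot be told apart, and the part of these markers in the Igfbp5 difference was not tested.

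**Figure D2:**
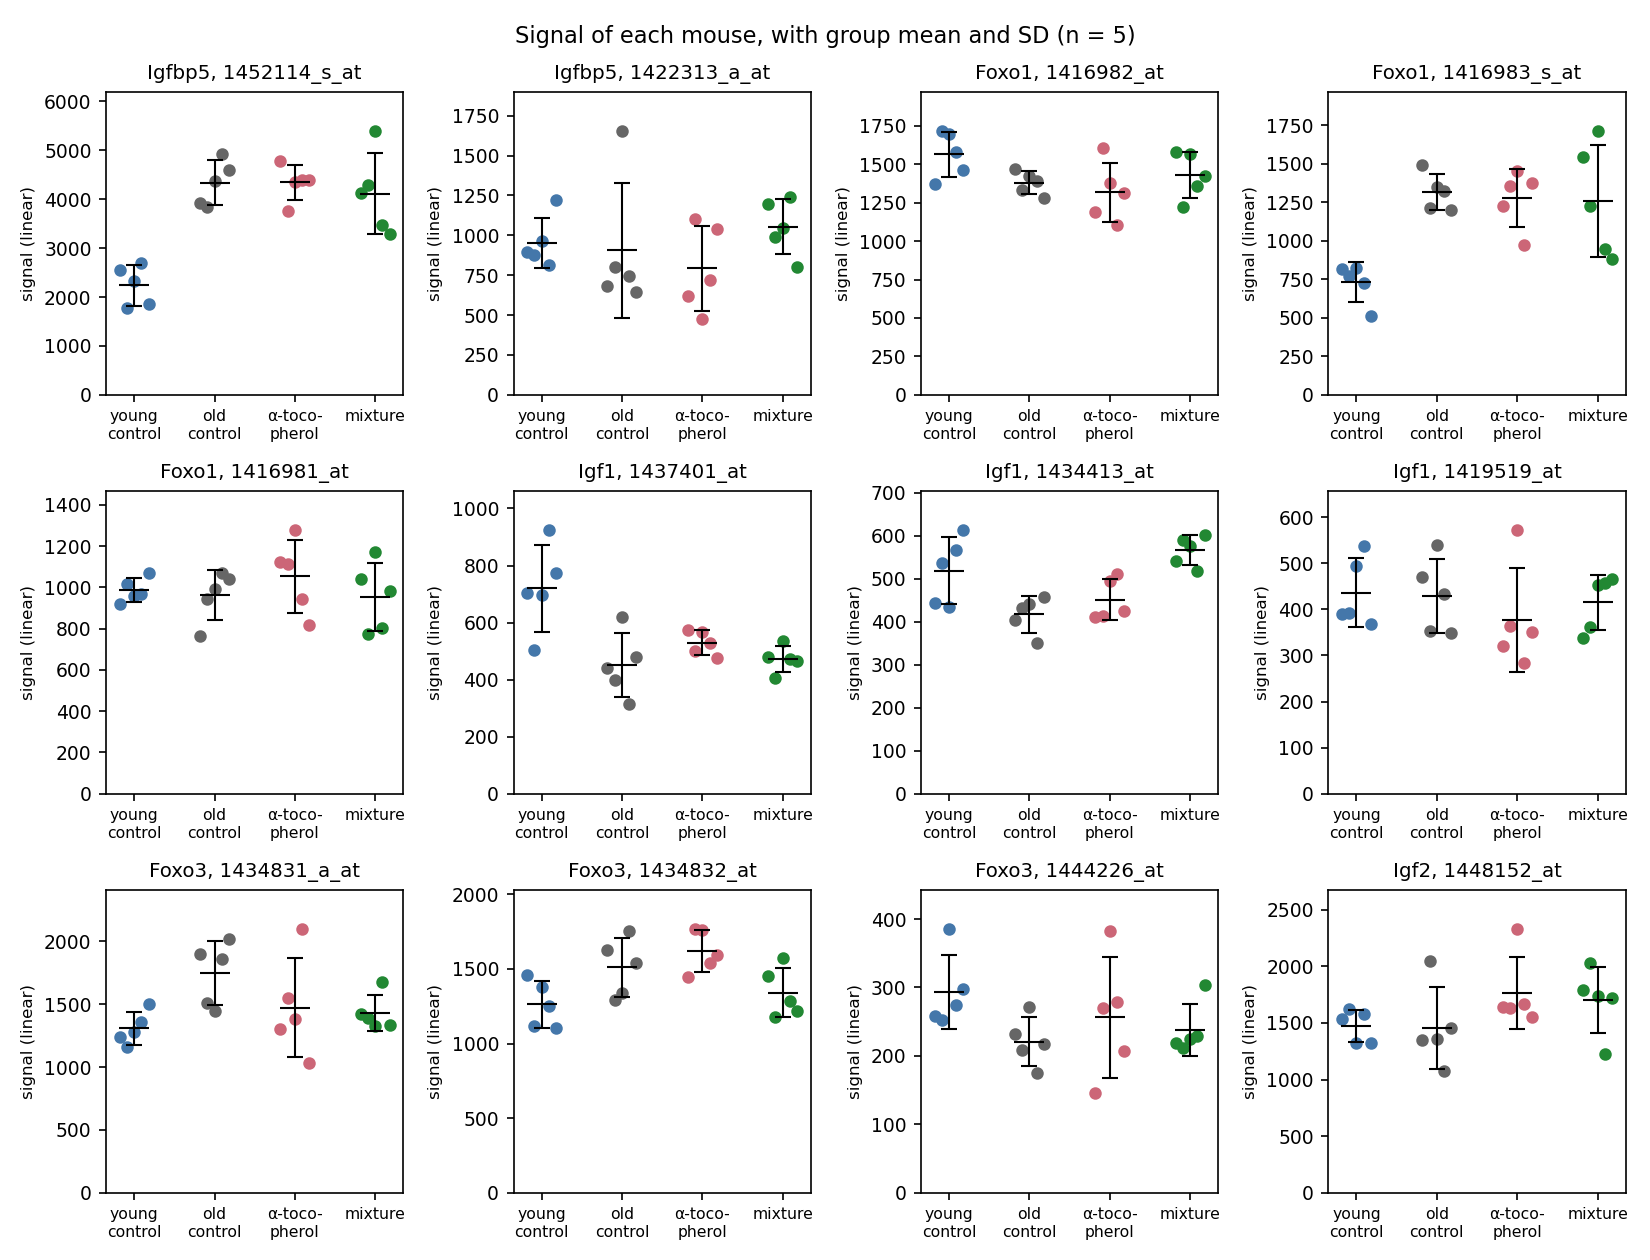
Linear signal of every mouse (points) for 12 probe sets of Igfbp5, Foxo1, Igf1, Foxo3 and Igf2, with the mean and SD of the 5 mice of each group. The 5 young control mice lie below all old control mice for Igfbp5 1452114_s_at and Foxo1 1416983_s_at, and overlap with them in the other probe sets of both genes.

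Igf1, the ligand of the IGF-1 receptor, had 3 tested probe sets, of which 1 was called with age. On 1437401_at the young control mice had signals of 704.3, 503.6, 695.7, 922.7 and 772.8, and the old control mice 439.9, 397.5, 619.4, 314.3 and 480.6. The groups overlapped through old control mouse 3 and young control mouse 2. The means were 720 ± 151 and 450 ± 113 (SD, n = 5), and the log2 difference of -0.67 ± 0.15 (SE) had an adjusted p of 0.004976 from limma.

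The α-tocopherol mice averaged 530 ± 43 on this Igf1 probe set and the mixture mice 472 ± 46 (SD, n = 5). Against young mice the mixture was called at -0.57 (adjusted p = 0.01452 from limma), and α-tocopherol was at -0.41 (adjusted p = 0.06703). Against old control neither was called, at 0.26 for α-tocopherol (95% interval -0.06 to 0.58) and 0.09 for the mixture (-0.23 to 0.41). The order of means was mixture and old control below α-tocopherol below young control, and the 3 old groups overlapped.

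The other Igf1 probe sets gave smaller differences with age. On 1419519_at the means were 436 ± 75 and 429 ± 81, a log2 difference of -0.03 (95% interval -0.38 to 0.33). On 1434413_at they were 519 ± 78 and 417 ± 42 (SD, n = 5), a difference of -0.30 with an adjusted p of 0.07391 from limma. The difference on 1437401_at was 0.64 larger than on 1419519_at within the same arrays (exact permutation p = 0.01587, adjusted p = 0.04081). The genes most like Igf1 1437401_at over the 20 arrays were 1700066B19Rik (r = 0.801), Unc5cl (r = 0.799) and Kif18b (r = 0.791).

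Microglia are among the cells that make Igf1 in the brain. Of 14 microglia markers 10 were called higher with age and 1 lower, while Igf1 1437401_at was lower. The other tested Igf1 probe sets were not called with age, and the part of microglia in the Igf1 difference was not tested. The summed microglia signal was 24678 to 25903 in young and 37886 to 41770 in old control mice. Over the 15 old mice the Igf1 signal on 1437401_at and the mean log2 signal of the 14 measured microglia markers had a Pearson r of 0.05 (permutation p = 0.853, adjusted p = 0.853) and a Spearman rho of 0.03 (p = 0.912, adjusted p = 0.912). Without the 2 mice farthest from the median r was -0.16, and with each group's mean removed r was 0.13 (adjusted p = 0.676, permuting within groups).

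Igf2, a fetal growth factor that the meninges and choroid plexus continue to make in the adult, was not called in any comparison. On 1448152_at the young control mice had 1531.5, 1620.4, 1326.3, 1576 and 1323.5, and the old control mice 1344.8, 2047.7, 1353.6, 1071.7 and 1452. The old control mice spread on both sides of the young ones. The log2 difference was -0.05 (95% interval -0.35 to 0.25). The α-tocopherol mice averaged 1762 ± 318 and the mixture mice 1701 ± 294 against 1454 ± 361 in old control (SD, n = 5), at log2 differences of 0.29 (95% interval -0.01 to 0.59) and 0.24 (-0.06 to 0.54).

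The second Igf2 probe set, 1415931_at, was too dim to be tested. It read 97.1 to 314.8 in young and 78.6 to 144.5 in old control mice, a log2 difference of -0.88 ± 0.26 (SE). In the fit that kept every probe set its adjusted p was 0.03317 by limma.

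Markers of choroid plexus and meninges differed between mice of 1 group. The 12 measured choroid plexus genes, of which Ttr and Clic6 were brightest, summed to 30072 to 44437 over young control mice and 12274 to 53983 over old control mice. In α-tocopherol mice the sum was 20244 to 50898, and in mixture mice it was 33815 to 41127. Ttr dominates this sum, with a mean signal of 28980 over all mice against 1037 for Clic6. The mean log2 signal weighs the 12 genes equally. It was 8.67 to 9.39 in young control and 7.97 to 9.66 in old control mice. With α-tocopherol it was 8.63 to 9.65 and with the mixture 9.16 to 9.41. The 18 meningeal genes, led by Igfbp2 and Mgp, had summed signals of 10907 to 12978, 9964.5 to 14590, 13155 to 15014 and 12411 to 15610 for the groups in that order. With age 1 of the 12 and 1 of the 18 were lower, and 1 of each list was higher in mixture than in old control mice.

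Over the 15 old mice Igf2 was higher where the choroid plexus markers were higher. Its log2 signal and the mean of the choroid plexus markers had a Pearson r of 0.786 (permutation p = 0.00047, adjusted p = 0.00141) and a Spearman rho of 0.832 (p = 0.00022, adjusted p = 0.00066), and r was 0.652 without the 2 mice farthest from the median. For the meningeal markers r was 0.626 (permutation p = 0.013, adjusted p = 0.0195), rho was 0.579 (p = 0.0262, adjusted p = 0.0393) and r without 2 mice was 0.645. The p-values are adjusted over the 3 relations computed, and groups of 5 are too small for a correlation of their own. With each group's mean removed and mice permuted within their group, added after the values were seen, the choroid plexus relation had r = 0.747 (adjusted p = 0.00219) and rho = 0.762 (adjusted p = 0.00093), and r = 0.462 without 2 mice. The meningeal relation did not hold within groups, at r = 0.498 (adjusted p = 0.186) and rho = 0.269 (adjusted p = 0.576), and without 2 mice r was -0.08. The gene most like Igf2 over all 20 arrays was Igfbp2 (r = 0.83), itself on the meningeal list, followed by Nbea (r = 0.775) and Zfp36l2 (r = 0.773).

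**Figure D3:**
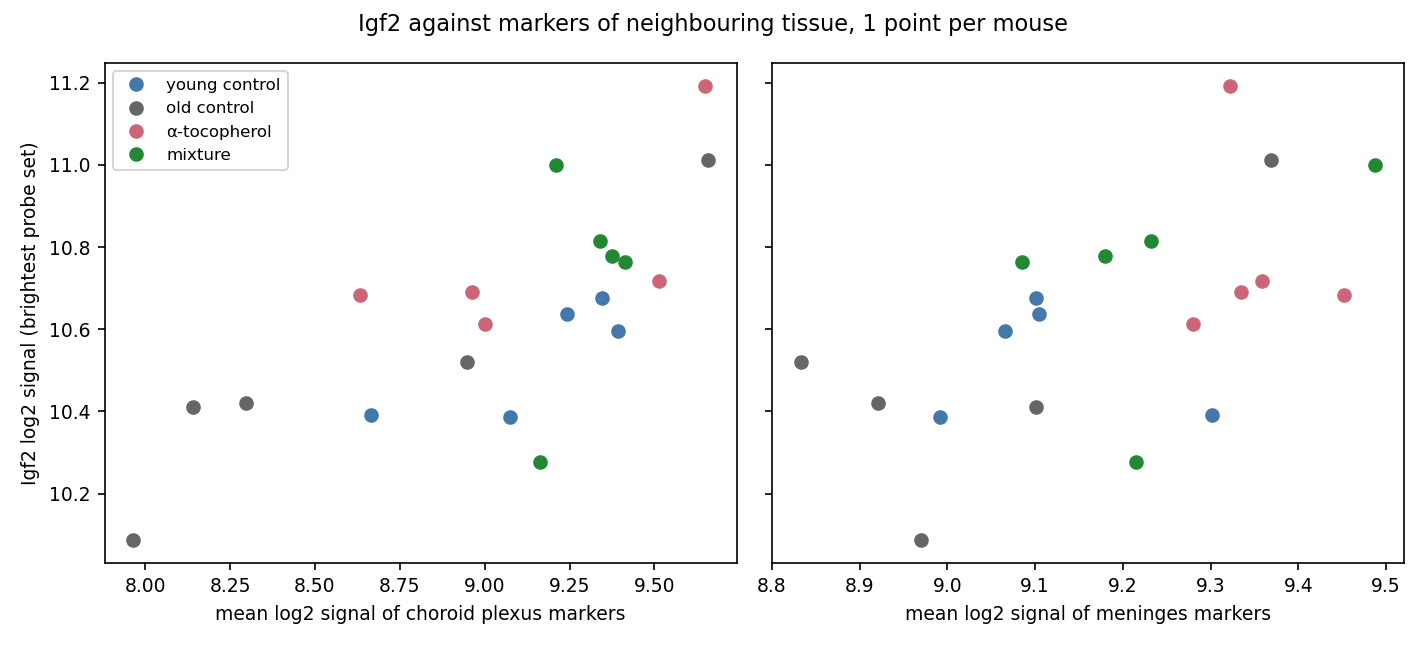
Log2 signal of Igf2 (1448152_at) against the mean log2 signal of 12 choroid plexus markers (left) and 18 meningeal markers (right), with 1 point per mouse coloured by group. The old control mice span the choroid plexus axis from 7.97 to 9.66, and over the 15 old mice r is 0.786 (left) and 0.626 (right), or 0.747 and 0.498 with each group's mean removed.

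Among the receptors no tested probe set was called between young and old control. Igf1r, the receptor for IGF-1, was measured by 4 tested probe sets. Its brightest, 1452982_at, had means of 3398 ± 346 in young control and 3544 ± 442 in old control (SD, n = 5), a log2 difference of 0.06 (95% interval -0.17 to 0.28). On 1426565_at the difference was 0.02 (-0.23 to 0.27) and on 1428967_at -0.30 (-0.58 to -0.03, adjusted p = 0.1157 from limma).

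The dimmest tested Igf1r probe set, 1446303_at, stood apart from the others. Young control mice had 269.1, 354.2, 372.5, 303.1 and 415.2, and old control mice 198.9, 218.9, 296.3, 177.6 and 126.6. Only old control mouse 3 reached the young range. The log2 difference of -0.74 ± 0.28 (SE) had an adjusted p of 0.06292 from limma. The same probe set was called against young mice in the α-tocopherol group at -1.05 (adjusted p = 0.01169 from limma) and in the mixture group at -0.81 (adjusted p = 0.04559). These comparisons use the same young mice. The mean signal, taken back from the log2 scale, was 339 in young control, 197 in old control, 156 with α-tocopherol and 187 with the mixture. The filter limit was 184, so young mice helped this probe set past it. Its tests against young mice, those of probe set pairs included, are not free of that selection. Its age difference was 0.76 more negative than that of 1426565_at and 0.80 more negative than that of 1452982_at, each with an exact permutation p of 0.007937, the smallest that 5 against 5 mice can give, and an adjusted p of 0.02857.

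Insr, the insulin receptor, was not called on either of its tested probe sets. On 1434446_at the means were 1784 ± 115 and 1525 ± 199, with a log2 difference of -0.23 (95% interval -0.43 to -0.04, adjusted p = 0.08926 from limma). On 1450225_at they were 443 ± 64 and 333 ± 94 (SD, n = 5), with a difference of -0.42 (-0.78 to -0.07, adjusted p = 0.08677). In the mixture group 1434446_at averaged 1775 ± 221, 0.22 above old control on the log2 scale (adjusted p = 0.1952).

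Igf2r, which clears IGF-2 and carries lysosomal enzymes, had nearly the same signal in every group. Its 2 tested probe sets had group means of 1130 to 1238 and 1117 to 1254. Their log2 differences with age were 0.07 (95% interval -0.13 to 0.27) and -0.01 (-0.20 to 0.18). The receptor substrates were not called either, at -0.03 (-0.27 to 0.21) for Irs1 and -0.16 (-0.51 to 0.18) for Irs2. Old control mouse 4 read 832.3 for Irs2 and the other old control mice 421.1 to 542.5.

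Foxo1, one of the transcription factors that AKT holds out of the nucleus, was called on 1 of its 3 tested probe sets. On 1416983_s_at the young control mice had 819, 772.6, 826.3, 728.7 and 512, and the old control mice 1490.5, 1211.9, 1350.3, 1324.7 and 1200.9. Every old control mouse was above every young mouse. The means were 732 ± 129 and 1316 ± 118 (SD, n = 5), and the log2 difference of 0.85 ± 0.16 (SE) had an adjusted p of 0.001357 from limma. The α-tocopherol and mixture mice averaged 1278 ± 188 and 1260 ± 363 and were called against young mice at 0.80 and 0.74 (adjusted p = 0.002218 and 0.003807 from limma).

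The brightest Foxo1 probe set, 1416982_at, had means of 1565 ± 148 in young control and 1379 ± 75 in old control (SD, n = 5), a log2 difference of -0.18 (95% interval -0.38 to 0.02). On 1416981_at the difference was -0.05 (-0.31 to 0.21). The age difference on 1416983_s_at was 1.03 and 0.89 higher than on these, each with an exact permutation p of 0.007937 and an adjusted p of 0.02857. The name of the called probe set has the ending for probes that can match transcripts of another gene, as that of the called Igfbp5 probe set does.

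Foxo3, the related factor, was called on 1434831_a_at. The young control mice had 1243.6, 1161.1, 1276.4, 1359.5 and 1505.7, and the old control mice 1903.7, 1512.3, 1447.5, 1864.2 and 2017.5. The groups overlapped between young control mouse 5 and old control mouse 3. The log2 difference was 0.41 ± 0.14 (SE) with an adjusted p of 0.04017 from limma. The call was lost in 5 of 14 alternatives: without the filter on dim probe sets (adjusted p = 0.0578 from limma), without the intensity trend (0.05511), and with the 3′ to 5′ signal ratio of β-actin (0.1364), the choroid plexus markers (0.09161) or the meningeal markers (0.05643) in the fit. It was also lost when any 1 of 7 mice was left out (young control 1 to 4 and old control 1, 4 and 5, adjusted p up to 0.09997), and the test across all 4 groups did not call this probe set (adjusted p = 0.1281).

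A second Foxo3 probe set, 1434832_at, had a difference of 0.25 with age (adjusted p = 0.0928 from limma) and was called in α-tocopherol against young mice at 0.36 (adjusted p = 0.02038). In the mixture it was 0.28 lower than in α-tocopherol mice, with an unadjusted p of 0.0151 and an adjusted p of 0.445. The third, 1444226_at, which also names Gm38485, was at -0.38 with age (95% interval -0.79 to 0.03). Its age difference was 0.79 below that of 1434831_a_at (exact permutation p = 0.007937, adjusted p = 0.02857).

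α-Tocopherol against old control gave no call among the 22 member probe sets by limma, and 0 of the 22 had an unadjusted p under 0.05. Over all 27022 tested probe sets 0% were called, and 1473 had an unadjusted p under 0.05. The lowest adjusted p among the members was 0.8825, for Igf2 1448152_at and Foxo3 1434831_a_at. The 95% interval lay within 1.5-fold for 19 of the 22 and within 2-fold for all 22.

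The mixture against old control gave 1 call among the 22, or 4.55%, against 3.59% of all tested probe sets. Igf1 1434413_at read 542.6, 590.4, 576.9, 519.3 and 603.1 in mixture mice and 403.7, 431.8, 442.1, 350.2 and 458.6 in old control mice. The groups did not overlap. The means were 566 ± 35 and 417 ± 42 (SD, n = 5), and the log2 difference of 0.43 ± 0.12 (SE) had an adjusted p of 0.04209 from limma. The other Igf1 probe sets were at 0.09 and -0.04 in this comparison. Over the alternatives in processing the adjusted p ran from 0.04197 to 0.8098 and the call was kept in 4 of 12. It was also lost without young control mouse 2 and without any 1 of the old control or mixture mice, with an adjusted p of up to 0.1052.

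Young control mice averaged 519 ± 78 on Igf1 1434413_at and α-tocopherol mice 451 ± 48 (SD, n = 5). The α-tocopherol mice read 410.7, 414.1, 495.3, 511.4 and 425.2, below every mixture mouse. The log2 difference between the mixture and α-tocopherol was 0.32 (95% interval 0.08 to 0.56), with an unadjusted p of 0.01075 and an adjusted p of 0.4155 from limma. In this comparison 0 of the 22 member probe sets and 0% of all tested were called by limma. An unadjusted p under 0.05 was found for 2 of the 22 and for 2266 of all 27022 tested probe sets. The interval lay within 1.5-fold for 20 of the 22. α-Tocopherol was given at different doses in these groups, so the comparison does not isolate γ-tocopherol.

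Against young mice the supplemented groups had as many calls among the members as old control did. In α-tocopherol mice 4 of the 22 were called, against 18.6% of all tested probe sets. In mixture mice 4 of the 22 were called, against 17.1%. A test for any difference among the 4 groups called 6 of the 22, against 21.4% of all tested: Igfbp5 1452114_s_at, Foxo1 1416983_s_at, Foxo3 1434832_at, Igf1r 1446303_at and the Igf1 probe sets 1434413_at and 1437401_at. Igf1r 1446303_at, which young mice helped past the filter, is in each of these counts. The count over the 4 groups was 3 without young control mouse 2 or 4.

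The rest of the pathway was read through 110 other genes grouped by role, of which 88 were measured, each by its brightest probe set. With age 23 of the 88 were called, 12 higher and 11 lower. That is 26.1%, against 21% of the brightest probe sets of all 13351 genes, of which 11.7% were higher and 9.3% lower. The median log2 difference was 0.02 against -0.02 over all genes. Calls went both ways in 3 of the 8 roles and 1 way in the other 5, which had 1 or 2 calls each. Leaving out young control mouse 3, young control mouse 5 or old control mouse 5 brought the count to 13. Of the 23, 17 had further tested probe sets, and in 5 of these at least 1 pointed the other way. All 23 kept their direction under quantile, cyclic loess and median scaling and with the 3′ to 5′ signal ratio of β-actin in the fit. Of the 23, 16 were still called under quantile or cyclic loess normalization, 8 higher and 8 lower. Under median scaling 15 were, 12 higher and 3 lower, and with the β-actin ratio 9 were, 3 higher and 6 lower.

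Around the ligands and binding proteins, Stc2, a stanniocalcin that blocks the protease cutting IGF binding proteins, fell from a mean signal of 708 to 450 (log2 difference -0.63, adjusted p = 0.0005432 from limma). The other Stc2 probe set was at -0.22 and was not called. Ide, the insulin-degrading enzyme, rose by 0.28 on its brightest probe set, and its 4 other probe sets pointed down. Among 5 other binding proteins 2 rose and 0 fell, Igfbp6 by 0.53 (from 1798 to 2609, adjusted p = 0.0005426 from limma) and Igfbp4 by 0.21 (adjusted p = 0.04525), with 2 of the 6 Igfbp4 probe sets pointing down.

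Among the receptors and adaptors 2 of 12 were called. Both were Gab docking proteins, which relay signals from receptor kinases to PI3K. On its brightest probe set Gab1 rose from 841 to 1308 (log2 difference 0.63, adjusted p = 0.0005432 from limma). Of the 3 Gab1 probe sets 1 was called, and the smallest difference was 0.03. Gab2 rose by 0.63 (adjusted p = 0.001751), with 1 of 3 Gab2 probe sets pointing down. Of 11 negative regulators Grb10, an adaptor that dampens the insulin and IGF-1 receptors, was called lower at -0.27, with 1 of its 3 probe sets pointing up.

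In the PI3K and AKT group 2 of 15 were called. Pik3cd, a catalytic PI3K subunit, had a mean signal of 13740 in young and 6781 in old control mice on its brightest probe set (log2 difference -1.02 ± 0.25 SE, adjusted p = 0.007425 from limma). Its other probe sets also pointed down, the smallest by 0.08 on the log2 scale, and were not called. Pik3ip1, a PI3K inhibitor, fell by 0.32.

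In the mTOR and translation group 6 of 15 were called, 3 higher and 3 lower. Eif4ebp1, a repressor of cap-dependent translation, rose by 0.56 (adjusted p = 0.008563 from limma). Of its 3 probe sets 2 were called, and the differences ran from 0.02 to 1.44. Rps6kb2, a ribosomal S6 kinase, fell by 0.54 (adjusted p = 0.003079), and Mapkap1, a subunit of mTOR complex 2, fell by 0.35. The other Mapkap1 probe set was at -0.002. In the RAS and MAPK group 1 of 7 was called, the transcription factor Elk1 at 0.33, and its other probe set was at -0.09.

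Of 20 other FoxO factors and known FoxO target genes 7 were called, 3 higher and 4 lower, with a median log2 difference of 0.03. Foxo4 rose from 427 to 640 (log2 difference 0.57, adjusted p = 0.01252 from limma). Among the targets the pro-apoptotic Bcl2l11 fell by 0.47 (adjusted p = 0.02417) and the cell cycle inhibitor Cdkn1b by 0.38 (adjusted p = 0.004254).

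**Figure D4:**
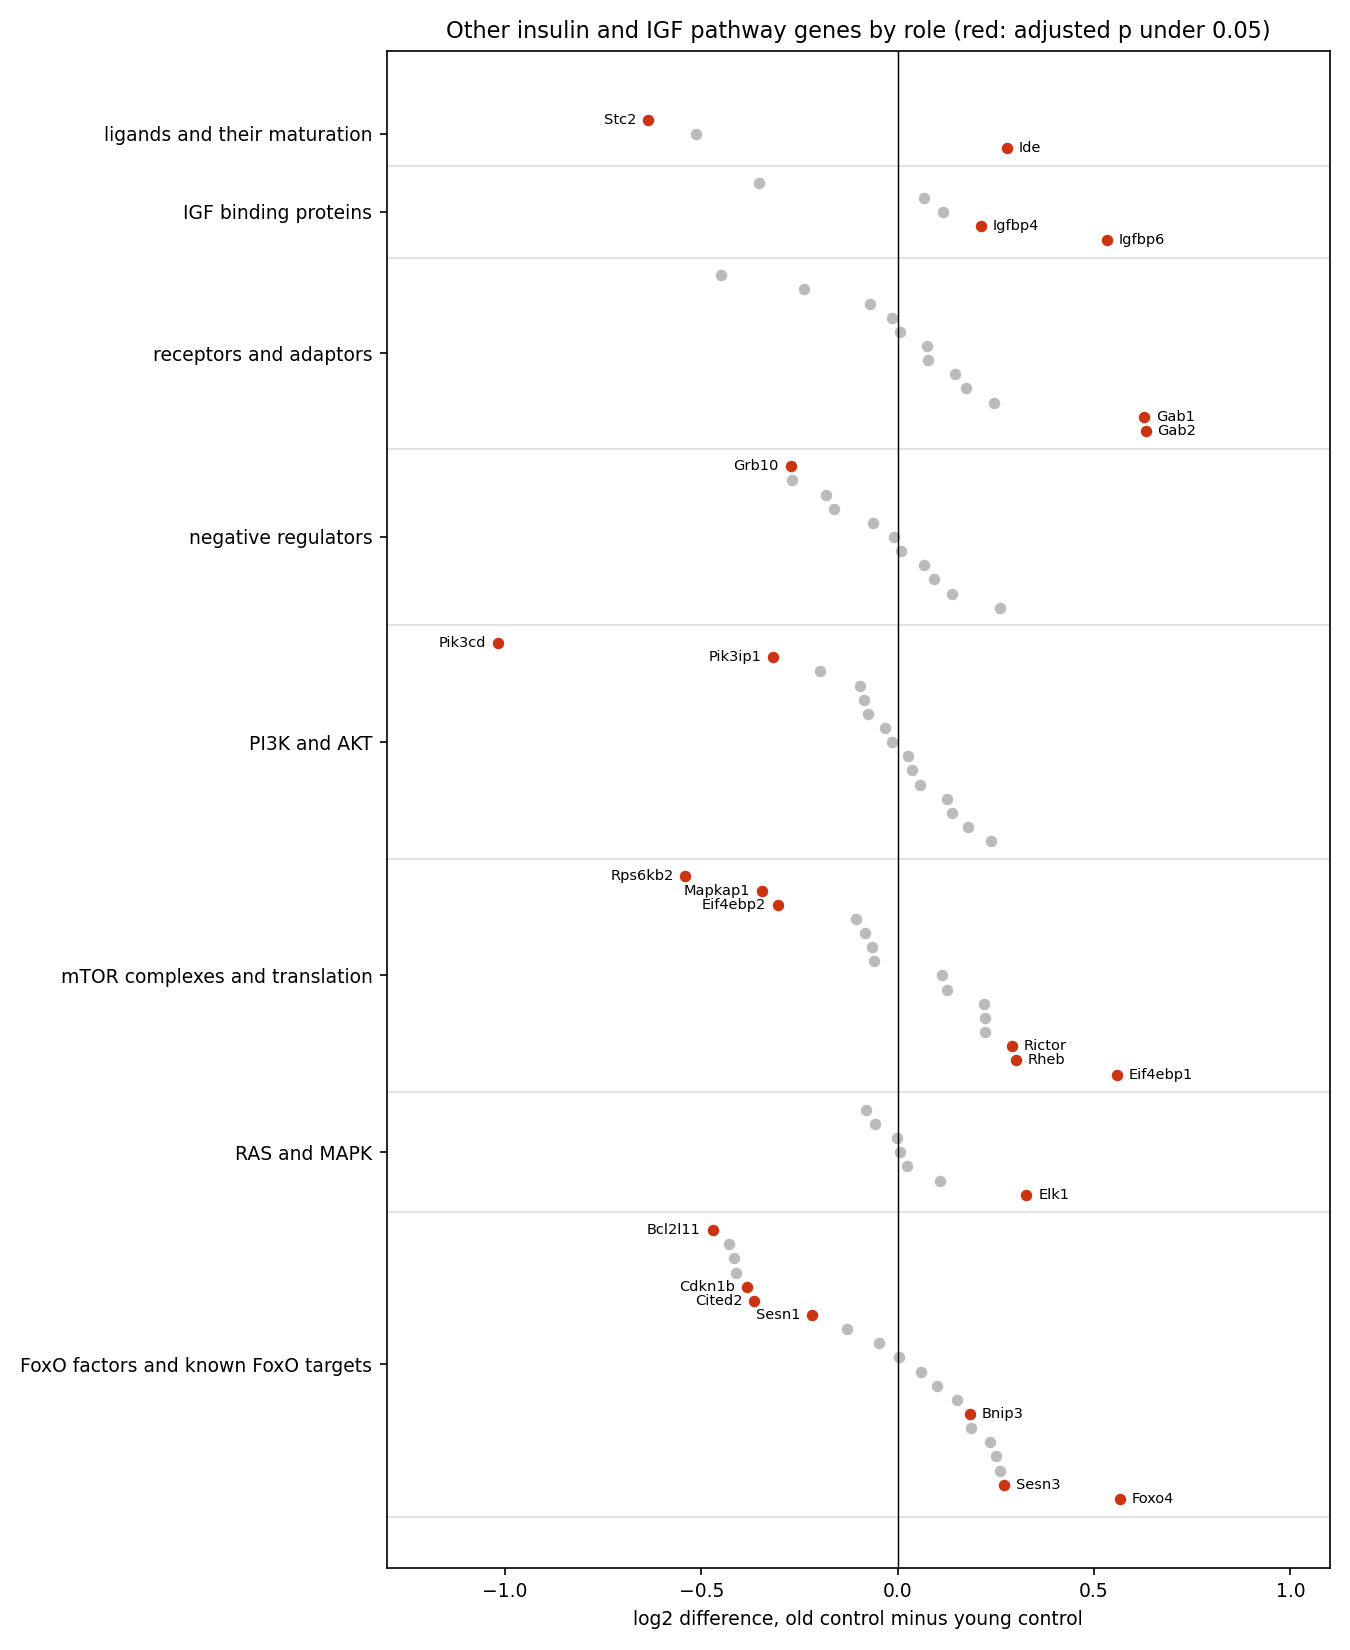
Log2 difference between old and young control mice of 88 other insulin and IGF pathway genes, 1 point per gene by its brightest probe set, sorted within 8 roles, with genes past an adjusted p of 0.05 in red and named. Red points lie on both sides of 0, 12 to the right and 11 to the left.

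The supplements gave few calls in the rest of the pathway. α-Tocopherol against old control called 0 of the 88 by limma, as it did over all genes, and so did the mixture against α-tocopherol. The mixture against old control called 2 of the 88, or 2.27%, against 3.69% of the brightest probe sets of all genes. Rheb, the GTPase that activates mTOR complex 1, had a mean signal of 14950 in young and 18430 in old control mice, and of 15490 with α-tocopherol and 14100 with the mixture. It was called higher with age at 0.30 and lower with the mixture at -0.39 (adjusted p = 0.0255 from limma). Both comparisons use the same old control mice, so these calls are not independent. Sos2, which loads RAS with GTP, was called higher with the mixture at 0.37 (adjusted p = 0.02416), from 1518 to 1969. The count of 2 became 0 under quantile or cyclic loess normalization and without mixture mouse 2. It was 1 without old control mouse 3, 4 or 5 or mixture mouse 5, and 4 without old control mouse 2.

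Some measures of the arrays moved with the groups. The ratio of 3′ to 5′ signal of β-actin, a measure of RNA integrity and labelling, was 1.42 to 1.74 in young and 1.73 to 2.52 in old control mice, and 1.43 to 2.36 with α-tocopherol and 1.22 to 1.60 with the mixture. The signal of the 18S ribosomal RNA probe sets was 259 to 488 in young and 719.5 to 1078 in old control mice, without overlap, and 420 to 1272 with α-tocopherol and 393 to 612 with the mixture. Its part in the results was not tested. The median signal was 316 to 331 in young and 284 to 313 in old control mice. When that β-actin ratio entered the fit, the calls of Igfbp5 (0.85), Foxo1 (0.83) and Igf1 (-0.85) with age were kept, and that of Foxo3 (0.42, adjusted p = 0.1364 from limma) was not. No call with the mixture was kept among the members, and over all probe sets 7.5% were then called with age and 0% with the mixture. Genes listed as markers of thalamus and of neurons also moved along these comparisons. Whether the thalamus list reads thalamic tissue here was not tested. Of 6 thalamus genes, with Calb2 and Prkcd brightest, 3 were called lower with age and 2 higher in mixture than in old control mice, against 3.69% of all genes called with the mixture. Their summed signal was 8183 to 9080 in young control, 5751 to 8298 in old control, 6282 to 9831 with α-tocopherol and 6963 to 9980 with the mixture. Of the 10 general neuron genes 4 were called lower in mixture than in old control mice, and their sum was 132700 to 147730 with the mixture. Their part in the member results was not tested. Neocortical projection neuron genes were measured in 7 of 8 cases, with Bcl11b and Tbr1 brightest and summed signals of 11716 to 13101 in young and 10995 to 15462 in old control mice. Of the 7, 1 was called higher with age and 0 with the mixture against old control.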

How the data were processed

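The deposited table holds 1 linear intensity per probe set and array, which the authors had scaled to a common trimmed mean. Affymetrix GCOS software is named, per the submitters' processing notes. Steps of background removal and probe summary were not given in the sources used here. Precision is limited by the number of arrays.

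Intensities were used as deposited, as log2(signal + 16). Probe sets were named from the platform annotation, with symbols updated through the RefSeq gene table of GRCm38.p6 for 34741 of the 34945 with 1 symbol, while 932 had several and 9160 none. Differences were fitted with limma 3.58.1 in R 4.3.3 (lmFit, eBayes with an intensity trend, all 20 arrays), two-sided, and adjusted over 27022 probe sets. The pathway and marker genes were read from the same fit. On simulated data the script recovered 37% of probe sets changed by 0.5 on the log2 scale and 86% of those changed by 1, for old against young control, over 27022 probe sets. Far fewer probe sets were changed there than were called in the data, and the noise was independent. The rates therefore do not give the recovery in the real age comparison. Pairs of probe sets were compared by exact permutation and correlations by 100000 permutations (scipy 1.17.1), all two-sided.

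The members and gene lists were chosen with earlier results of these data known. The genes named were all members, up to 3 called genes of largest size per role and comparison, the 2 brightest markers of a list and the 3 genes most like a member. Probe sets with several symbols were left out of the lists. Mice with the same number deviated together little (median r = 0.04 over 30 pairs, against -0.01 for other numbers), so the numbers were not used as pairs. Alternatives were other scalings, pseudocounts, filters, covariates and leaving out each mouse. The alternatives of the test across 4 groups, the left-out mice for the pathway counts, the comparison of probe set pairs and the correlations within groups were chosen after seeing the data.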

Additional observations from a re-analysis of the deposited data

Results flagged for a closer look

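Signals of the 22 tested member probe sets were examined in each group of 5 mice for a mouse far from the other 4. Of 88 such groups 6 held a mouse whose gap to its nearest neighbour, divided by the range of the group, exceeded 0.71, and chance gives about 5% of groups. For Igfbp5 1422313_a_at the ratio was 0.765 in old control, where mouse 3 read 1651.1 and the others 642.1 to 802.8. For Foxo1 1416983_s_at it was 0.736 in young control, where mouse 5 read 512.0 and the others 728.7 to 826.3. For Igf2 1448152_at it was 0.822 in the α-tocopherol group, where mouse 3 read 2324.4 and the others 1550.7 to 1666.8.

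α-Tocopherol mouse 4 stood low on a pair of Igf1r probe sets, with a ratio of 0.764 on 1426565_at (627.5 against 876.8 to 971.9) and 0.821 on 1446303_at (55.2 against 177.0 to 223.9). For Foxo3 1444226_at the ratio was 0.792 in the mixture group, where mouse 5 read 304.0 and the others 211.7 to 228.4.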

How the results depend on the processing

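With age, the count of member probe sets called stayed within 1.5 times its value of 4 in 14 of 14 alternatives and was 3 to 6 when a mouse was left out. Igfbp5 1452114_s_at and Igf1 1437401_at were called in 14 of 14 and Foxo1 1416983_s_at in 13 of 13, and all in 20 of 20 with a mouse left out, while Foxo3 1434831_a_at was called in 9 of 14 and 13 of 20. The pathway count of 23 ran from 13 to 27 when a mouse was left out and was 16 under quantile and cyclic loess normalization. For the mixture against old control, the member count of 1 became 0 under quantile normalization, cyclic loess, equal array medians and no filter. The same held with only the 2 groups compared and with the β-actin, choroid plexus or meninges covariate. With the top 40% of probe sets or the brightest probe set per gene it was also 0, but Igf1 1434413_at was not tested there. Those settings could not keep the call. When a mouse was left out the count was 0 to 1. The pathway count of 2 became 0 under quantile normalization and cyclic loess and 1 under equal array medians, no intensity trend and only the 2 groups, with 0 to 4 when a mouse was left out. Under equal medians 9.83% of all mixture calls were higher, against 36.1% otherwise. The count over 4 groups, 6, became 3 with no filter and was 3 to 6 when a mouse was left out. Calls over all probe sets for the mixture were 970, and 134 under quantile normalization, 174 under cyclic loess, 492 with no filter, 358 with no intensity trend, 476 with only the 2 groups, 0 with the β-actin or the meninges covariate and 26 with the choroid plexus covariate. With the replicate number as a block the member counts were 4 with age, 0 with α-tocopherol, 1 with the mixture, 0 for the mixture against α-tocopherol and 6 over the 4 groups. The pathway counts under the block were 25, 0, 3 and 0. Of 20 arrays 4 correlated best with their own number. No result reversed. The cause of these moves was not tested. Dim probe sets limit what can be said of Igf2 1415931_at and the other untested sets.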
